A study of Mus musculus with 6 samples.

Results

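Immunoglobulin heavy chain variable (Ighv) segments were measured by RNA sequencing in spleens of mice lacking Was and of wild-type mice. The members are the rows of the expression table whose symbol begins with Ighv and whose normalized counts in the 6 libraries averaged at least 1. These conditions held for 120 of 126 Ighv rows, out of 26452 rows in all. At the limit, Ighv6-5 and Ighv1-14 had mean normalized counts of 1.31 and 1.02, and Ighv1-28 and Ighv8-14, at 0.618 and 0.519, were left out. The knockout group was 3 male Was -/- mice (129S6/SvEvTac-Wastm1Sbs/J), libraries KO451, KO452 and KO457, and the control group was 3 male 129S6/SvEvTac wild-type mice, libraries WT453, WT454 and WT455. All were 10 weeks old, and total RNA of the spleen went into mRNA libraries. The labels name no transgene, Cre or further treatment.

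A heavy chain gene is built in a developing B cell when the RAG recombinase joins 1 V, 1 D and 1 J segment. The resulting exon is transcribed together with a constant region, which sets the antibody class. The V segment encodes part of the antigen-contacting surface of the heavy chain, and segments of similar sequence are grouped into families that give the first number of the name. Antibody-secreting plasma cells carry far more heavy chain transcript than resting B cells, so a few expanded clones can supply a large share of the V reads in a spleen. Ighv11-2 and Ighv12-3 are known for antibodies to phosphatidylcholine made by B-1 cells, an innate-like B cell lineage. The mice are of a 129 strain, whereas GRCm38 is the C57BL/6J genome, and these strains carry different Igh haplotypes. A row therefore holds the reads of 129 transcripts that were assigned to that C57BL/6J segment, and how this moved the values was not tested.

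All 120 members lie on the minus strand of chromosome 12 in GRCm38, between 113572927 and 116000461, and GENCODE M21 annotates 105 as V genes and 15 as V pseudogenes. Their V exons are 283 to 351 bases long, with a median of 305. The median identity of a V exon to its nearest other member was 95.1% (range 73.7% to 100%), and 61 of 120 had a neighbour at 95% or more. The V exons of Ighv1-71 and Ighv1-62-2 are identical, and neither the way reads matching several segments were counted nor the strand setting is given in the sources used here. Values of close neighbours are therefore uncertain. The 300 bases at the 3′ end of the V exon are printed for the segments on which the results turn, from the GENCODE M21 transcripts. Ighv11-2 (chr12:114048241-114048540, minus strand) and Ighv11-1 (chr12:113981879-113982178, minus strand) are shown together because the first carried at least 209 reads in each library and the second at most 8. Capitals mark the 4 positions of the 307-base exon at which they differ (98.7% identity).
Ighv11-2: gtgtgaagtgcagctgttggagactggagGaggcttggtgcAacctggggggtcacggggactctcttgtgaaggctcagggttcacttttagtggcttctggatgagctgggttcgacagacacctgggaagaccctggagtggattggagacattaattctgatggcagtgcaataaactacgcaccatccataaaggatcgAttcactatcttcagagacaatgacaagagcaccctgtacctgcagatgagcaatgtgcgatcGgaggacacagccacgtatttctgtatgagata
Ighv11-1: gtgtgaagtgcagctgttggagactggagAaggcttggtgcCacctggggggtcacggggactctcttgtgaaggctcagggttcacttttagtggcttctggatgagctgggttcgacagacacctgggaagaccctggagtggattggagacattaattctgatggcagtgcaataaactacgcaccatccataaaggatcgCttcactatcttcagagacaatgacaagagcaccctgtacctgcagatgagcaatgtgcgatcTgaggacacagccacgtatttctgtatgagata

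Ighv1-18 (chr12:114682632-114682931, minus strand) and Ighv1-26 (chr12:114788372-114788671, minus strand) are both among the most abundant members. Capitals mark the 8 positions of the 305-base exon at which they differ (97.4% identity).
Ighv1-18: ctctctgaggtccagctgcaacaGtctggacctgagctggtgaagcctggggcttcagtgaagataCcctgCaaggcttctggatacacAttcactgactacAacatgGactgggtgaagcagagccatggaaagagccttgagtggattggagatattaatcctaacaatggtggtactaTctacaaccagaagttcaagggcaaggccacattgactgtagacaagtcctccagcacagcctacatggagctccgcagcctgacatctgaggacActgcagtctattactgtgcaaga
Ighv1-26: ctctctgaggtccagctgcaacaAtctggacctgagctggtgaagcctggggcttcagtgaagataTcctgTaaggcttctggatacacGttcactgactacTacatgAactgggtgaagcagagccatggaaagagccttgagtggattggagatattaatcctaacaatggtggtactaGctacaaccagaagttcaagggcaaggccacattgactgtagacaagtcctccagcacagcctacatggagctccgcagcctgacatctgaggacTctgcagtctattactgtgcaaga

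Ighv2-3 (chr12:113611187-113611486), Ighv3-6 (chr12:114288152-114288451) and Ighv12-3 (chr12:114366521-114366820), all on the minus strand, are shown because each is described by library below. Capitals mark the Tyr-Tyr-Cys codons near the 3′ end of the V exon, whose cysteine is conserved in V domains.
Ighv2-3: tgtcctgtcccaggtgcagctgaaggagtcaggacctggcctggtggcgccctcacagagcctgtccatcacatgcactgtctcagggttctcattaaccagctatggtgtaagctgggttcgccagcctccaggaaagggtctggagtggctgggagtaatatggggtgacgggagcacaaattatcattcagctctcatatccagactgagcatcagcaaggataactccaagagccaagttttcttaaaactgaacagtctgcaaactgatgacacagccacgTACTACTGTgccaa
Ighv3-6: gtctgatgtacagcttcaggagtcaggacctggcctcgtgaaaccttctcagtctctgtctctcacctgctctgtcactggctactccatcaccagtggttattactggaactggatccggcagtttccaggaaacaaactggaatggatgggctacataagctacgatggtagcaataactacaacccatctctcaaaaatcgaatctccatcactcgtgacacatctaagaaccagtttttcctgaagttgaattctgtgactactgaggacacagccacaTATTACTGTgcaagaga
Ighv12-3: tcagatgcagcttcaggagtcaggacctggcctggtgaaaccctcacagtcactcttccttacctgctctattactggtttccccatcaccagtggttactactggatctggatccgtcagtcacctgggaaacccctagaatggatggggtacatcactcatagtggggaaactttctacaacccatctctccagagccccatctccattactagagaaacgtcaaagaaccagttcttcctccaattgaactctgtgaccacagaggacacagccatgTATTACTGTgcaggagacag

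The libraries held 30661759 to 38402758 reads in genes. Was, the targeted gene, was at 13.7, 12.2 and 11.3 CPM (reads per 1000000 reads in genes) in KO451, KO452 and KO457, against 125, 209 and 197 in WT453, WT454 and WT455. It was low in every library labelled knockout, as the labels state. WT453 stood apart in neutrophil markers. The summed CPM of 10 such genes was 98814 there, against 5717 and 11667 in the other wild-type libraries. The knockout libraries ranged from 13300.2 to 61399. Summed CPM of 15 B cell markers was 2466 in WT453, against 7519 and 5864 in the other wild-type libraries. That value lay within the 2156 to 4490 of the knockout libraries.

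The summed Ighv level did not separate the groups. Ighv segments took 3498, 2342 and 4108 CPM in KO451, KO452 and KO457, and 992, 3307 and 5482 CPM in WT453, WT454 and WT455. The wild-type libraries held both the lowest and the highest value, so the knockout range lay inside theirs. Group means were 3316 ± 897 CPM in knockout and 3261 ± 2246 in wild type (SD, n = 3), and the wild-type mean was 4395 CPM without WT453. As a share of all gene reads, the lowest library was WT453 at 0.0992% (95% exact Clopper-Pearson interval 0.0981% to 0.1003%) and the highest WT455 at 0.548% (0.546% to 0.551%). These intervals cover counting error only, and they are far narrower than the spread between animals. With whole spleen RNA, fewer cells of a type and less RNA per cell cannot be told apart.

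The ratio of V to constant region reads depended on the constant regions counted. For every 100 heavy chain constant region reads there were 20.1, 14.7 and 18.1 Ighv reads in the knockout libraries, against 6.05 in WT453, 20.2 in WT454 and 22.3 in WT455. Apart from WT453, the ratios lay between 14.7 and 22.3, and the highest knockout value, 20.1, lay next to the 20.2 of WT454. For every 100 reads of Ighm alone, the IgM constant region, there were 30.0, 19.8 and 39.7 Ighv reads in the knockout libraries and 44.0, 50.6 and 82.0 in WT453, WT454 and WT455. By that ratio WT453 lay above every knockout library and below the other wild-type libraries. The Ighv reads include V segments joined to every class, so this ratio sets a whole against a part and also varies with class make-up. Igha, the IgA constant region, was at 6969 to 13061 CPM in wild type and 1299 to 2893 CPM in knockout. At the kappa light chain locus WT453 was again the lowest: its 125 variable segment rows held 17.0 reads per 100 reads of Igkc, the kappa constant region, against 68.6 to 88.6 in the other 5 libraries. The heavy chain constant regions summed to 16389 CPM in WT453 and 15906 to 24622 CPM in the others, while Ighm was lowest in WT453, at 2255 CPM against 6540 to 11826, and Igha stood at 8002 CPM there. Igkc itself was at 8733 CPM in WT453, within the 6822 to 11687 CPM of the other libraries. The kappa variable segments summed to 1481 CPM in WT453, against 4680 to 9232 CPM in the others. The part of the neutrophil marker level, or of any property of the library, in these values was not tested.

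**Figure D1:**
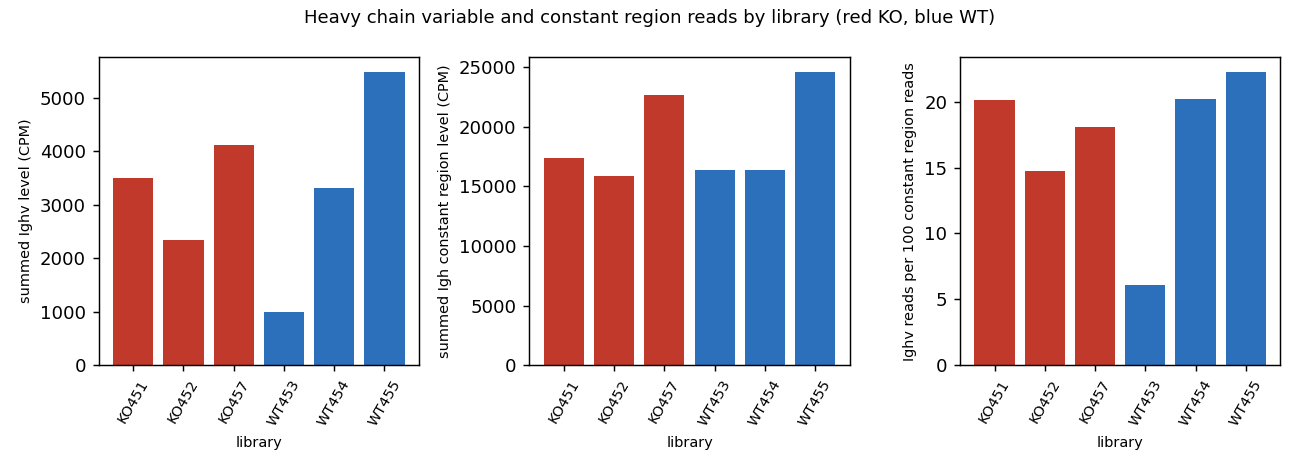
Ighv CPM, heavy chain constant region CPM and Ighv reads per 100 constant region reads, 1 bar per library (red knockout, blue wild type). WT453 has the lowest Ighv bar (992 CPM) and the lowest ratio (6.05), while its constant region bar lies within the range of the other libraries.

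Most of the 120 members had reads in both groups, which the rule that chose them, a mean normalized count of at least 1 over these libraries, favours. Reads fell on 108, 107 and 117 of the 120 segments in KO451, KO452 and KO457, and on 101, 116 and 117 in WT453, WT454 and WT455, and 98 segments had reads in all 6 libraries. The segments that made up 50% of Ighv reads numbered 12, 12 and 14 in the knockout libraries and 13, 16 and 14 in the wild-type libraries. The effective number of segments, the exponential of the Shannon entropy of the shares, is the count of equally used segments that would give the same evenness. It was 44.0, 48.5 and 52.1 in knockout and 47.8, 56.4 and 49.6 in wild type, with means of 48.2 ± 4.07 and 51.3 ± 4.56 (SD, n = 3). The groups overlapped, and the difference of the means, -3.10, was smaller than either SD. Without WT453 it was -4.83. With all 6 libraries but without Ighv3-6, the segment with the highest mean share, the difference was -7.76. Both of these differences were larger than either SD above, which belong to the full set of libraries and segments. How the difference compares with the SD thus depended on WT453 and on Ighv3-6.

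The order of segments was similar in all libraries. Spearman's rho of the shares over the 120 segments was 0.866 to 0.900 for the 3 pairs of knockout libraries, 0.881 to 0.959 for the 3 wild-type pairs and 0.855 to 0.928 for the 9 pairs between groups. These describe segments, which are not independent replicates and share a locus and an annotation. Over the 6 libraries, 35 segments had a mean share of at least 1% and 36 had one under 0.1%. Per kilobase of exon, V genes had a median of 48.0 mean CPM (range 0.116 to 735), and pseudogenes a median of 0.342 (0.0728 to 2.14, the highest being Ighv5-1). The 15 pseudogenes held 0.0951%, 0.0883% and 0.0960% of Ighv reads in the knockout libraries and 0.119%, 0.143% and 0.104% in the wild-type libraries.

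Ighv3-6, the only highly used member of family 3, was the first by mean level per kilobase. Its shares of Ighv reads were 3.10%, 4.13% and 7.12% in KO451, KO452 and KO457, and 11.5%, 6.75% and 12.9% in WT453, WT454 and WT455. It was the most used segment of KO457 and of every wild-type library, and KO457 overlapped with WT454. Its log2 fold change, knockout minus wild type on the log2(normalized count + 1) scale, was -0.71 ± 0.70 (SE), with a limma adjusted p of 0.726, and -1.28 without WT453. The next by level per kilobase was Ighv1-26, whose CPM of 102, 116 and 274 in knockout and 34.9, 139 and 245 in wild type overlapped. Mean levels were 735 ± 668 CPM per kilobase for Ighv3-6, 433 ± 259 for Ighv1-26, 349 ± 198 for Ighv1-18, 347 ± 648 for Ighv2-3 and 307 ± 136 for Ighv6-3 (SD over the 6 libraries). These neighbours in the order do not differ beyond their spread.

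A single animal placed Ighv2-3 near the top. It took 16.5% of Ighv reads in KO451 (95% exact interval 16.3% to 16.7%), against 0.821% in KO452, 0.797% in KO457, 0.682% in WT453, 1.07% in WT454 and 0.910% in WT455. KO451 thus stood alone, with 578 CPM of Ighv2-3 where the other 5 libraries had 6.76 to 49.9. The log2 fold change was 1.79 ± 1.34 (limma adjusted p = 0.649), 0.25 without KO451 and 0.94 without WT453. Ighv1-75 gave a smaller case in wild type. Its share was 6.27% in WT453 (6.01% to 6.55%), against 1.34% in WT454, 1.34% in WT455, and 0.458%, 1.09% and 1.60% in the knockout libraries. The most used segments of KO452 were Ighv1-82 at 6.44% (6.27% to 6.61%) and Ighv6-3 at 6.41%, so no single segment led that library by more than its counting error.

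**Figure D2:**
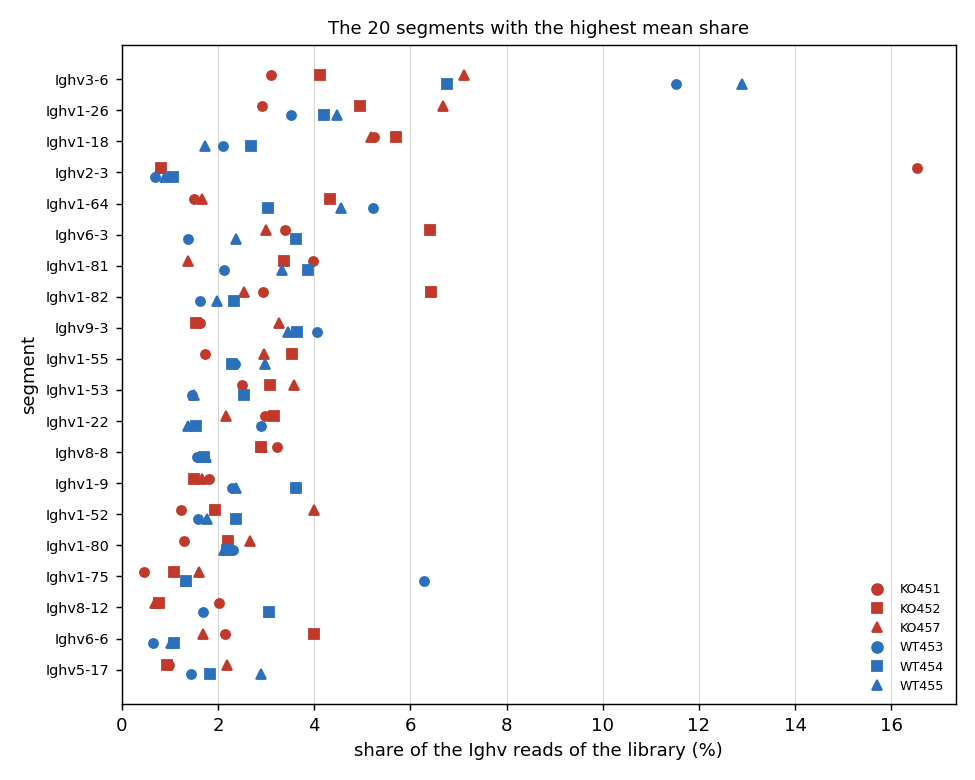
Share of Ighv reads (%) of the 20 segments with the highest mean share, 1 point per library (red knockout, blue wild type). Ighv2-3 stands out at 16.5% in KO451 alone, Ighv3-6 reaches 11.5% and 12.9% in WT453 and WT455, and the knockout points of Ighv1-18 (5.18% to 5.70%) lie above its wild-type points (1.73% to 2.70%).

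Knockout and wild type were compared for each segment with limma on the deposited log2 values, adjusted over all 22071 genes with a mean normalized count of at least 1. None of the 120 members passed an adjusted p of 0.05. Among all tested genes 2 did, or 0.00906%, and the smallest adjusted p of a member was 0.344. An unadjusted limma p under 0.05 was reached by 6 members (5%), against 11% of all tested genes. All 6 were higher in knockout (5% of members, against 5.5% of all tested genes), and 0 were lower, against 5.46%. With limma voom on the recovered reads, 0 members passed the adjusted threshold, against 1 of all tested genes. At the unadjusted one there were 6 (against 11.8% of all tested genes in that fit), 5 higher (against 3.84%) and 1 lower (against 7.92%). The authors' deposited table lists 2 members at an FDR under 0.05, Ighv11-2 (FDR 0.00393) and Ighv1-18 (FDR 0.0316), which is 1.67% of members, against 4.3% of all tested genes. Both are higher in knockout, the direction of 2.57% of all tested genes in that table.

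The fold changes were above 0 for 72 of 120 members (60%), against 47.7% of all tested genes. Their median was 0.27, with a range of -1.68 to 2.61, a median SE of 0.81 and a median over all tested genes of -0.03. With each library scaled by its own Ighv total the median was -0.15, and that of all tested genes -0.46. The direction rested on WT453, which had the lowest log2 level of the 6 libraries in 79 of the 120 segments. Without WT453, 40 members were above 0 and 80 below, with a median of -0.38. The unadjusted count then became 14 members, 3 higher and 11 lower. Again 0 members passed the adjusted threshold, against 2 of all tested genes. The shares of all tested genes at that limit without WT453 were 8.53% higher and 9.67% lower. Without KO457 the median was -0.02.

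**Figure D3:**
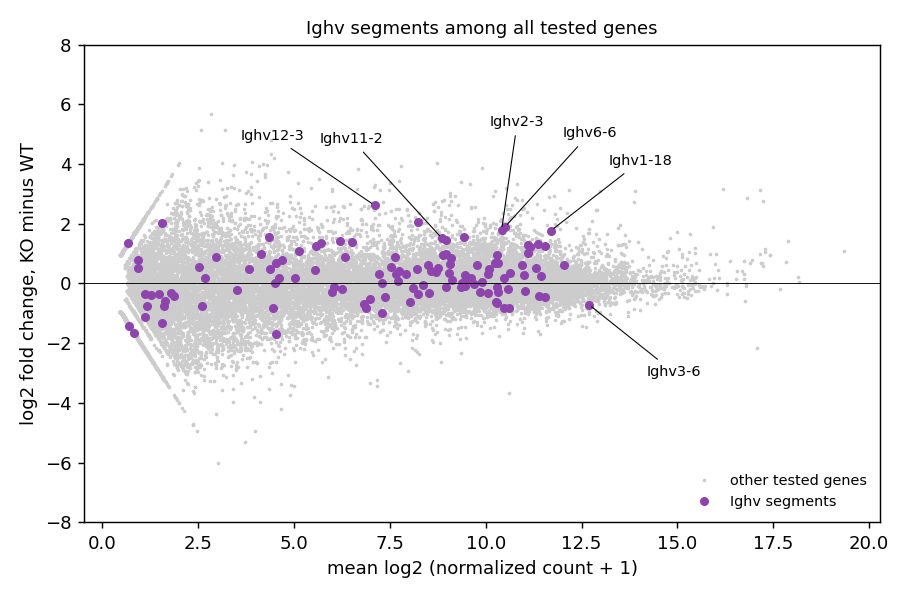
Log2 fold change, knockout minus wild type, against the mean log2(normalized count + 1), with Ighv segments in purple and the other tested genes in grey. The members lie within the cloud of all genes, with Ighv12-3 the highest of them on this scale at 2.61 and 6 segments named in the text labelled.

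Log2 levels did not overlap between the groups for 8 members that were higher in knockout (6.67%, against 9.54% of all tested genes) and for 0 that were lower (against 9.94%). The 8 were Ighv1-18, Ighv6-3, Ighv1-82, Ighv1-22, Ighv6-6, Ighv11-2, Ighv1-66 and Ighv8-7. Some of these overlapped in CPM. Ighv6-3 was at 119 CPM in KO451 against 130 in WT455, and Ighv1-82 at 103 in KO451 against 109 in WT455. Ighv1-22 was at 74.2 in KO452 against 75.0 in WT455. With WT453 left out, 8 members did not overlap in the higher direction (6.67%, against 19.2% of all tested genes) and 24 in the lower (20%, against 21.2%). In both settings the members' counts were at or under those of genes in general.

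Of the B-1 segments, Ighv11-2 had the smallest p of all members. It held 635, 1251 and 544 reads in KO451, KO452 and KO457, and 234, 483 and 209 reads in WT453, WT454 and WT455. In CPM these are 18.4, 37.5 and 15.5 in knockout and 7.26, 12.6 and 6.82 in wild type, so every knockout library lay above every wild-type library. The log2 fold change was 1.51 ± 0.38 (limma unadjusted p = 0.00514, adjusted p = 0.344), and it ranged from 1.17 to 1.77 when each library was left out. As a share of Ighv reads the groups overlapped, at 0.525%, 1.60% and 0.378% in knockout and 0.732%, 0.380% and 0.124% in wild type. Ighv11-1, whose V exon differs from that of Ighv11-2 at the 4 capital positions printed above, held 0, 0 and 2 reads in knockout and 0, 3 and 8 in wild type.

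Ighv12-3, the other B-1 segment and the only member of its family, had the highest fold change of all members on the log2(normalized count + 1) scale. With smaller pseudocounts or limma voom, Ighv8-7, which has few reads, was higher. Ighv12-3 held 721, 216 and 226 reads in the knockout libraries, and 11, 343 and 47 reads in WT453, WT454 and WT455. WT454 exceeded 2 of the knockout libraries in CPM, at 8.93 against 6.48 and 6.46, so the groups overlapped. The log2 fold change was 2.61 ± 1.10 (limma unadjusted p = 0.0475, adjusted p = 0.451), and 1.53 without WT453. Neither B-1 segment passed the adjusted threshold.

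Ighv1-18, a member of the large family 1, was the most abundant of the segments with an unadjusted p under 0.05. Its CPM was 183, 133 and 213 in knockout, and 20.9, 89.2 and 95.1 in wild type. The groups did not overlap in CPM, nor in the share of Ighv reads, at 5.23%, 5.70% and 5.18% against 2.11%, 2.70% and 1.73%. The log2 fold change was 1.77 ± 0.57 (limma unadjusted p = 0.0159, adjusted p = 0.365), and 1.08 without WT453. Its near neighbour Ighv1-26, with a log2 fold change of 0.63 ± 0.71 (-0.15 without WT453), overlapped between the groups also in its share, which was 2.91%, 4.96% and 6.67% in knockout and 3.52%, 4.20% and 4.47% in wild type.

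Ighv6-6 and Ighv1-22 were also higher in every knockout library on the log2 normalized scale. Ighv6-6 had 74.8, 93.5 and 69.0 CPM in knockout and 6.36, 35.9 and 55.9 in wild type, a log2 fold change of 1.89 ± 0.72 (limma adjusted p = 0.418) that was 0.98 without WT453. Ighv1-22 had 104, 74.2 and 89.2 CPM in knockout and 28.7, 51.0 and 75.0 in wild type, with a log2 fold change of 1.03 ± 0.36 (limma adjusted p = 0.387) that was 0.69 without WT453. In CPM, KO452 lay just under WT455 for Ighv1-22, whereas the log2 normalized levels did not overlap. The last of the 6 at an unadjusted p under 0.05, the pseudogene Ighv8-7, had 7, 5 and 3 reads in knockout and 0, 0 and 2 in wild type. That is close to the limit of 3 reads that a count of 0 allows, and no fold is given.

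In the lower direction the smallest p belonged to Ighv1-59, with 26.1, 21.4 and 38.4 CPM in knockout and 38.2, 73.4 and 41.8 in wild type. KO457 at 38.4 lay just above WT453 at 38.2, and the log2 fold change was -0.67 ± 0.34 (limma unadjusted p = 0.0875, adjusted p = 0.512). Ighv1-75 had a log2 fold change of -0.83 ± 0.51 and Ighv1-47 one of -0.99 ± 0.72 (-1.52 without WT453), and both overlapped between the groups. Ighv1-21-1 and Ighv6-5 had 0 reads in all knockout libraries, against 0, 3 and 8 and 0, 2 and 6 reads in WT453, WT454 and WT455, which is too few for a fold.

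Shares of Ighv reads remove the difference in total V transcript between animals. They sum to the same total in each library, so a rise in some segments forces a fall in others. Separations in the higher and the lower direction on that scale are therefore not independent findings. The groups did not overlap for 15 members (12.5%), against 4.62% of all tested genes whose level was divided by the same Ighv totals. The groups did not overlap for 7 members with a higher share in knockout (5.83%, against 1.63%). They were Ighv1-18, Ighv1-82, Ighv8-8, Ighv6-6, Ighv1-42, Ighv1-43 and Ighv8-7. They did not overlap for 8 members with a lower share (6.67%, against 2.99%), namely Ighv9-3, Ighv1-9, Ighv2-2, Ighv3-1, Ighv1-61, Ighv1-47, Ighv1-62-2 and Ighv1-36. For other genes the division adds the spread of the Ighv totals, so the percentages of members and of all genes are not on an equal footing. Without WT453 the counts were 12 higher (10%, against 14.7%) and 19 lower (15.8%, against 3.99%).

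Examples on the share scale cover segments of high and of middling use. Ighv8-8 took 3.22%, 2.90% and 2.91% of Ighv reads in knockout and 1.57%, 1.72% and 1.75% in wild type. Ighv9-3 took 1.64%, 1.54% and 3.28% in knockout and 4.06%, 3.65% and 3.45% in wild type. Each kept its groups apart, yet the log2 levels of both overlapped, with fold changes of 1.29 ± 0.63 and -0.43 ± 0.67. Without WT453 these were 0.56 and -1.04, and that of Ighv9-3 was 0.045 without KO452 and 0.043 without WT455. In the limma fit with each library scaled by its own Ighv total, 0 of 120 members passed an adjusted p of 0.05, against 6 of all tested genes. At an unadjusted p under 0.05 there was 1 member (against 3.68% of all tested genes), and the smallest adjusted p was 0.998.

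By family, no group difference stood clear of the spread. All 15 families overlapped in their share of Ighv reads. Family 1, with 60 of the 120 members, took 46.3%, 58.2% and 54.4% in knockout and 57.5%, 52.1% and 49.1% in wild type. Family 2 took 19.1% in KO451 and 3.31% to 5.74% elsewhere, and without Ighv2-3 its share in KO451 was 2.58%, within the 2.49% to 4.67% of the other libraries. Family 3 took 3.72%, 5.27% and 8.78% in knockout and 12.5%, 7.92% and 14.2% in wild type, and without Ighv3-6 at most 1.66% in any library. Family 6, which holds Ighv6-3 and Ighv6-6, took 5.53%, 10.4% and 4.68% in knockout and 2.02%, 4.72% and 3.40% in wild type, with KO457 just under WT454.

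**Figure D4:**
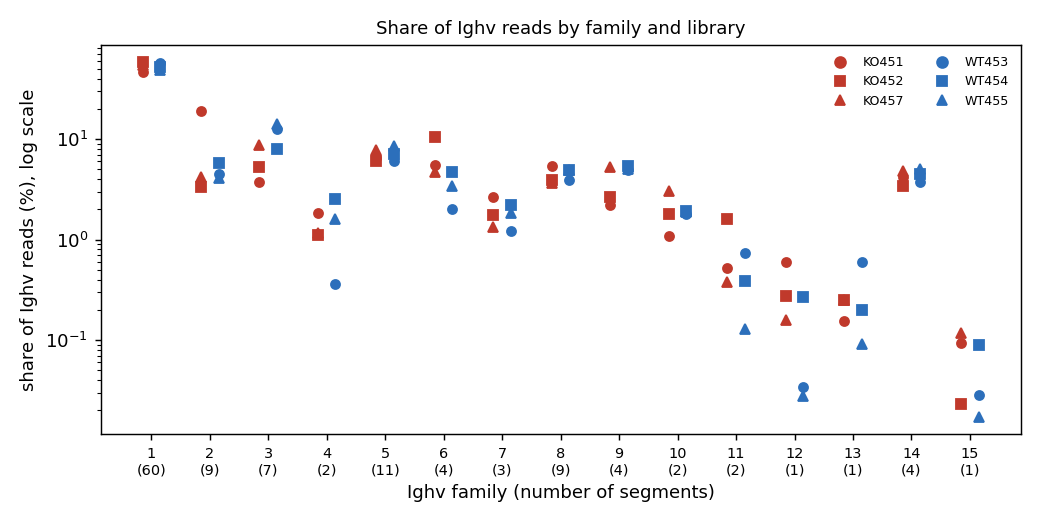
Share of Ighv reads (%, log scale) of the 15 Ighv families, 1 point per library (red knockout, blue wild type), with the number of segments in brackets. Family 1 holds 46.3% to 58.2% of reads in every library, and the points of the groups overlap in each family.

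The most abundant members of the remaining families also overlapped in level between the groups. Ighv4-1 had 3.57 CPM in WT453 against 84.2 and 87.7 CPM in WT454 and WT455, and 64.8, 25.9 and 47.7 CPM in the knockout libraries, with a fold change of 0.68 that was -0.82 without WT453. Ighv5-17, Ighv10-1 and Ighv14-3 had fold changes of -0.20, 0.49 and 0.35, and of -1.10, -0.32 and -0.49 without WT453. Those of Ighv7-3, Ighv13-2 and Ighv15-2 were -0.27, 0.40 and 1.25, and -1.05, 0.44 and 0.46 without WT453. None of these had an unadjusted limma p under 0.05.

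Along the locus, the members were put in 4 stretches of 30 by position. The stretch from 113572927 to 114094358, the end nearest the constant regions, holds 10 segments of family 5 and 9 of family 2, and took 32.3%, 15.5% and 19.9% of Ighv reads in knockout and 16.4%, 21.2% and 20.4% in wild type. In the next (114109001 to 114631111) the knockout shares of 21.4%, 25.7% and 26.6% lay under the wild-type shares of 29.0%, 29.1% and 30.4%. Without Ighv3-6 these became 18.3%, 21.5% and 19.4% against 17.5%, 22.3% and 17.5%, and the groups overlapped.

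The following stretch (114646572 to 115243235), with 27 of its 30 segments in family 1, showed the opposite order, with 23.0%, 27.7% and 30.0% in knockout above 20.7%, 22.8% and 22.4% in wild type. Without Ighv1-18 these became 17.7%, 22.0% and 24.8% against 18.6%, 20.1% and 20.7%, and the groups overlapped. The far stretch (115258136 to 116000461) took 23.4%, 31.1% and 23.5% in knockout and 33.9%, 26.9% and 26.8% in wild type. Neither separation by position held once the named segment was left out. The gap in the stretch of Ighv1-18 was narrow, 23.0% in KO451 against 22.8% in WT454. Whether leaving out another segment would also close these gaps was not tested, so they cannot be laid to the named segments alone.

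**Figure D5:**
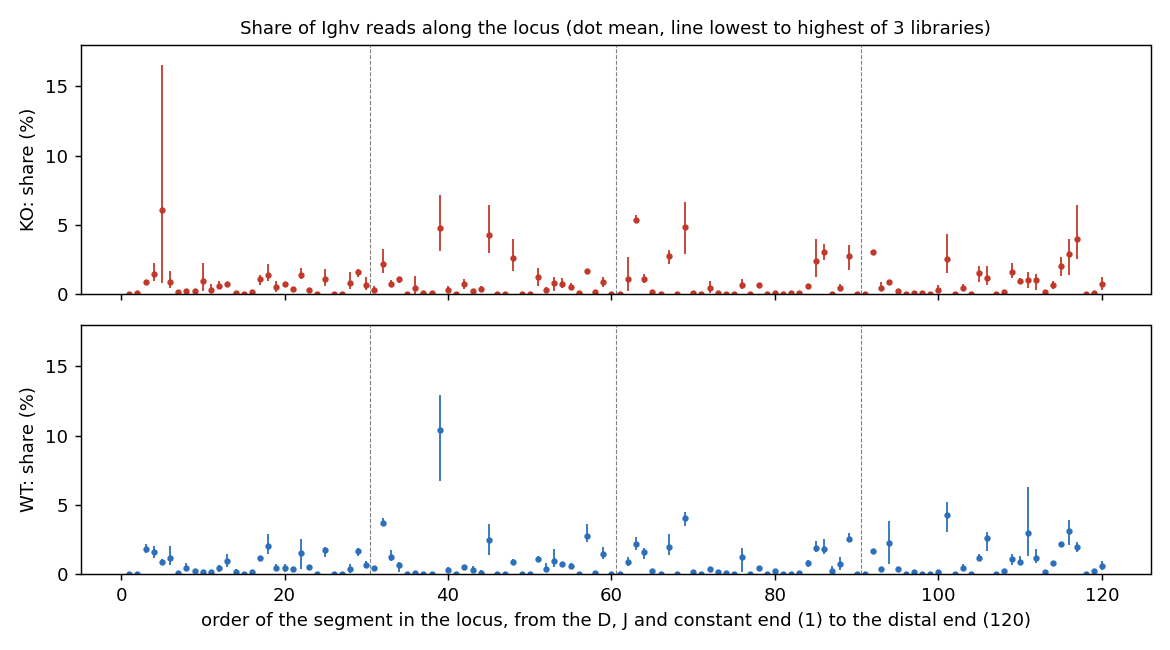
Share of Ighv reads (%) of each member in order along the locus, with knockout above, wild type below and dashed lines between the 4 stretches of 30. The dot is the mean and the line runs from the lowest to the highest of 3 libraries, and the longest lines are Ighv2-3 in knockout (0.797% to 16.5%) and Ighv3-6 in wild type (6.75% to 12.9%).

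The other genes of the pathway give the setting of these values. Of the 8 heavy chain constant region genes, 5 were higher and 3 lower in knockout, 0 passed the adjusted limma threshold, and their median fold change was 0.39 (0.65 without WT453), against -0.03 over all tested genes. Ighm, which encodes the IgM heavy chain, was at 11658, 11826 and 10351 CPM in knockout and 2255, 6540 and 6689 in wild type, a log2 fold change of 1.43 ± 0.44 (limma adjusted p = 0.355). Igha, which encodes the IgA heavy chain, was at 2893, 1299 and 1616 CPM in knockout and 8002, 6969 and 13061 in wild type, with a log2 fold change of -2.16 ± 0.41 (limma adjusted p = 0.344). For both genes the groups did not overlap, in opposite directions, while the constant region sum overlapped. Ighg1 and Ighg2b, which encode IgG subclasses, had fold changes of 0.60 ± 1.25 and 0.18 ± 0.50. Among 4 light chain constant region genes 3 were higher and 1 lower, with a median of 0.22, and Igkc had a fold change of 0.04 ± 0.34. In the authors' deposited table, Igha (FDR 0.00069), Ighg3, Ighe and Iglc1 were at an FDR under 0.05. The other constant region genes, with Ighm at an FDR of 0.114, were not.

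Of the 12 genes of V(D)J recombination and end joining, 7 were higher and 5 lower, with a median of 0.04 (-0.09 without WT453). The most abundant were Xrcc6, a Ku subunit that holds broken DNA ends, and Prkdc, the DNA-dependent protein kinase catalytic subunit, with fold changes of 0.52 ± 0.20 and -0.0037 ± 0.35. Rag1, which encodes a subunit of the recombinase and was picked after its values were seen, was at 10.4, 10.01 and 42.1 CPM in knockout and 1.02, 3.28 and 1.53 in wild type, with a fold change of 3.37 ± 0.67 (limma adjusted p = 0.344). All 3 knockout libraries thus lay above the wild-type libraries in Rag1. Of 13 factors that bind or fold the Igh locus, 7 were higher and 6 lower (median 0.01, and -0.22 without WT453), with Rad21 of cohesin at 0.31 ± 0.37 and Irf8 at -0.29 ± 0.46. Of 10 genes of somatic mutation and class switching, 8 were higher and 2 lower (median 0.45), with Msh6, a mismatch repair gene, at 0.42 ± 0.25. None of these genes passed the adjusted limma threshold, which 2 of all 22071 tested genes passed. In the authors' deposited table, Rag1 (FDR 4.05e-06) and Rag2 (FDR 0.00338, at a mean of 0.969 CPM) were under 0.05. No other gene of these lists was.

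Markers of the cells that make V transcripts differed in how they followed the Ighv totals. Of 15 B cell markers tested (16 listed), 14 were lower and 1 higher in knockout (median -0.56, and -1.11 without WT453), and their summed CPM was 2156, 4490 and 2161 in knockout and 2466, 7519 and 5864 in wild type. KO452 thus had the highest B cell sum and the lowest Ighv level of the knockout libraries. Cd79a, a subunit of the B cell receptor, was at -0.53 ± 0.46. The 15 plasma cell markers split into 7 higher and 8 lower (median -0.06, and -0.16 without WT453), with summed CPM of 2914, 2410 and 3203 in knockout and 2805, 3249 and 2922 in wild type. Jchain, the joining chain of secreted IgM and IgA, was at 2098, 1475 and 2180 CPM in knockout and 1847, 2046 and 1679 in wild type, and the groups overlapped.

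Markers of other spleen cells differed between the groups or in WT453, and their part in the Ighv values was not tested. All 12 erythroid markers were higher in knockout (median 2.90), with summed CPM of 28161 to 82753 in knockout and 2465 to 12724 in wild type. All 12 red pulp macrophage markers were higher (median 1.24, and 0.60 without WT453) and all 12 T cell markers lower (median -0.69). Of 10 neutrophil markers 8 were higher and 2 lower, with a median of 0.42, and 1.69 without WT453. No marker on these lists was at 0 in all libraries, and none passed the adjusted limma threshold. In the authors' deposited table, every erythroid marker but Alas2 was at an FDR under 0.05. So were Cd5l of the macrophage list, Lat of the T cell list and Cd37 of the B cell list. No neutrophil or plasma cell marker was.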

How the data were processed

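Spleen RNA of 3 Was knockout and 3 wild-type mice was sequenced. Per the submitters' processing notes, the build was GRCm38 and the tools included DESeq, StringTie 1.3.1c, STAR 2.5.3a and FastQC 0.11.5, with no roles given. How reads were counted, on which annotation and strand, is not given in the sources used here. Deposited by the authors were, for 26452 genes, log2 values, group means, and their own log2 fold change, p-value and FDR. From the values, each deposited log2 value is log2(reads / size factor + 1): within 0.001, 100% were whole multiples of 1 step per library, which gave back whole reads. Names of the knockout columns end in a suffix whose meaning is not stated.

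Reads were summed to CPM of gene reads and to shares of Ighv reads. Groups were compared with limma 3.58.1 (R 4.3.3), with an intensity trend on the deposited values, for the 22071 genes with a mean normalized count of at least 1, with Benjamini-Hochberg adjustment at 0.05. On this log2(value + 1) scale, changes of low genes come out too small. The code was tested on simulated data. With 3 against 3 an exact permutation test cannot go below 0.1, so none is given. The labels number the animals separately but say no more, so p-values measure only the spread between these samples. The labels state no batch.

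Positions and V exons come from GENCODE M21 (GRCm38), which holds all 120 members. Segments named were the 10 of highest mean share, the 5 smallest p in each direction, the top segment of each library and of each family. From the gene lists, up to 4 genes of highest level were named per constant region list and 2 per other list. One gene that this rule names is not reported here. Segments named only because their groups did not overlap, Ighv1-71 and Ighv1-62-2 for their identical sequence, Ighv11-1, Ighv5-1 and Rag1 were chosen after their values were seen. The same holds for list genes named only for their FDR in the authors' table. The members and lists were chosen with earlier results of these data known. Alternatives were pseudocounts, filters, scalings, limma voom, libraries left out, and segments left out.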

Additional observations from a re-analysis of the deposited data

How the results depend on the processing

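The count of members past the adjusted threshold was 0 in every setting run, with a smallest adjusted p between 0.130 and 0.998 (limma or limma voom). No paired analysis was possible because the groups share no animal numbers. The median log2 fold change of 0.27 became 0.13 with CPM scaling, 0.12 with limma voom and -0.15 with each library scaled by its Ighv total. These scalings moved the median of all tested genes from -0.03 to -0.17, -0.17 and -0.46. Leaving out single libraries gave medians of -0.38 to 0.79. For the summed Ighv level in normalized counts it gave log2 ratios of -0.22 to 0.80, against 0.20 with all libraries. In CPM, the unit used for that sum in the Results, the log2 ratio with all libraries was 0.024. For the effective number of segments, leaving out libraries gave differences of -5.06 to -0.52, leaving out pseudogenes -3.04 and leaving out Ighv3-6 -7.76. The cause was not tested.

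Of 28 named segments, 16 kept their direction in every setting run. The side of the threshold could not tell them apart, as 0 members passed it in any setting. There were 14 settings, of which the filter at a mean of 1 CPM left out Ighv8-7, Ighv1-21-1 and Ighv6-5. With single libraries left out, fold changes that turned ranged from -0.15 to 1.23 for Ighv1-26, -0.22 to 1.15 for Ighv1-55, -0.98 to 0.12 for Ighv1-64, -0.67 to 0.85 for Ighv1-81, -0.32 to 1.15 for Ighv10-1 and -0.49 to 0.97 for Ighv14-3. They ranged from -1.28 to 0.0033 for Ighv3-6, -0.82 to 1.45 for Ighv4-1, -1.10 to 0.61 for Ighv5-17, -1.05 to 0.15 for Ighv7-3 and -1.04 to 0.045 for Ighv9-3. With Ighv scaling, Ighv1-81 was at -0.19, Ighv13-2 at -0.045 and Ighv14-3 at -0.10. None of these was past the threshold in any setting. Depth limits the rare segments: a share of 1% has a 95% exact interval of 0.895% to 1.12% in WT453, the library with fewest Ighv reads (31972).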
